A study of Mus musculus with 59 samples.

Results

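The livers of mice with an E2F1 knock-in, labelled 1KI, were compared with the livers of wild-type mice, labelled wt. The comparison takes the 10 1KI arrays and the 12 wt arrays whose titles place them in normalization 1, which are 22 of the 59 samples of the series; the 59 are 37 arrays, some entered in 2 normalizations. All animals were 4 weeks (1 month) old and of a mixed background of FVB/NT, 129S1/Svlmj and C57BL/6NT, and no treatment is labelled for either group. The wt animals carry no labelled allele. No source used here gives the locus that holds the knock-in, its copy number, the number of founder lines or the sex of the animals. Trizol-extracted total RNA was made into biotin-labelled cRNA and read on a mouse array of 45101 probe sets, of which those with exactly 1 gene symbol gave 18193 genes, each read from its brightest probe set. The 10 arrays of E2f3a knock-out livers (3aKO) of the same normalization entered the fit for the spread alone. Values are log2 expression, so that a difference of 1 is a 2-fold change, and all errors of differences are standard errors of the limma fit.

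E2F1 is a transcription factor that binds DNA together with a DP partner and switches on genes for DNA replication. Pocket proteins of the retinoblastoma family hold it inactive until cyclin-dependent kinases phosphorylate them, and the kinase inhibitors p21 and p27 keep that step in check. In young liver the hepatocytes leave the cell cycle and many become polyploid, and E2F1 is also known for a role in the control of sugar and lipid metabolism genes.

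The arrays stood apart in ways that bear on every result. Added hybridization controls read 11.31 ± 0.24 (SD, n = 10) in 1KI and 10.44 ± 0.50 (SD, n = 12) in wt, a difference of 0.872 (2-sided permutation test, adjusted p 0.00063 over 3 control measures). All 10 1KI arrays and wt replicates 1 and 2 lay at the higher level, and wt replicates 3 to 12 lay between 9.86 and 10.5. Each result was therefore also read from the 10 1KI arrays against wt replicates 1 and 2 alone, called the level-matched comparison here, with a spread estimated over all 32 arrays. Its standard errors were larger, at 0.35 against 0.19 for Cdkn1a and 0.54 against 0.30 for Pctp. A call lost in it is therefore not by itself a smaller difference. In 1KI replicate 6 the 3′ probe sets of Gapdh and Actb exceeded the 5′ ones by 1.75 on average, against 0.445 to 0.665 in the other 21 arrays, as degraded RNA gives, and its poly-A controls read 10.86 against at most 9.75 elsewhere. The labels give no sex, but 5 wt and 5 1KI arrays had Xist signal and 7 wt and 5 1KI arrays had signal of Y-linked genes. The labels do not state whether each array is a different animal, and p-values here rest on the spread among the arrays, which may in part be technical.

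The 1KI livers differed from wt in many genes, mostly by small steps. In the limma fit 5026 of 18193 genes (27.6%) passed an adjusted p of 0.05, of which 1850 (10.2%) were higher and 3176 (17.5%) lower in 1KI, and 7051 had an unadjusted p under 0.05. The median size of the called differences was 0.26, and 422 of them reached 1.5-fold. With the arrays set to equal medians over all probe sets, 1578 were higher and 4321 lower. The median over all genes tested was -0.05. In the level-matched comparison 782 genes (4.30%) were called, 388 higher (2.13%) and 394 lower (2.17%), with a median of -0.07 over all genes. The part of the hybridization level in the larger count was not tested.

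Without overlap between the arrays of the groups, 252 genes (1.39%) were set apart, 123 of them higher (0.676%) and 129 lower (0.709%) in all 10 1KI arrays than in all 12 wt arrays. All 252 were called, 150 of them also in the level-matched comparison. A stricter group of 591 genes (3.25%) was called in the same direction with all arrays, without 1KI replicate 6, in the level-matched comparison and with a gene's probe sets averaged, and is called the genes kept in 4 fits. It held 354 higher (1.95%) and 237 lower genes (1.30%), of which 145 had no overlap and 236 reached 1.5-fold. Of these 591, 529 were also called within the arrays with Y-linked signal (13.0% of all genes were), 415 within those with Xist signal (14.7% of all genes), and 416 when the 4 1KI arrays with Y-linked signal other than replicate 6 were set against wt replicates 1 and 2, where 3.73% of all genes were called. These fits use part of the arrays on which the 591 were chosen and are no independent support. Among wt arrays, replicates 1 and 2 differed from the other 5 with Y-linked signal in 57 genes, and 1 of these, 5730416F02Rik, was among the 591 (3.25% of all genes). The 591 had to be called both against all wt arrays and against wt replicates 1 and 2. That choice works against genes that differ among the wt arrays, so the small overlap is no support for the 591.

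No E2f1 probe set was called higher in the arrays labelled 1KI. The brightest of them lay between 6.25 and 7.27 in wt (median 6.49) and between 6.16 and 6.90 in 1KI (median 6.32), and the groups overlapped. The difference was -0.25 ± 0.11 with an adjusted p of 0.086, and the other probe sets of E2f1 gave -0.19 and -0.10. No source used here says whether these probes match the inserted E2F1, so this reading is no check of the label. E2f2 differed by -0.09 ± 0.07 (adjusted p 0.32) and E2f3 by -0.03 ± 0.07 (adjusted p 0.77). Of 10 measured E2F and DP genes, 1 was called (10.0% lower, against 17.5% of all genes): Tfdp2, a DP partner, fell by 0.18 ± 0.06 (adjusted p 0.027), but with its probe sets averaged the difference was 0.02. Without 1KI replicate 6 the adjusted p of Tfdp2 was 0.057, and E2f4 alone was called, with a difference of 0.15. E2f7, a repressor of the family that other E2Fs induce, read -0.20 ± 0.10 (adjusted p 0.12).

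The tissue read as liver in every array. Over 18 hepatocyte markers, among them albumin, transthyretin and apolipoprotein A-I, the mean level lay between 13.465 and 13.528 in wt and between 13.538 and 13.661 in 1KI. Of these markers 2 were called, both higher in 1KI, and the median difference was 0.02, or -0.01 with the arrays set to equal medians over all probe sets. Ass1, a urea cycle enzyme, rose by 1.25 ± 0.20 (adjusted p 1.3e-05; 7.08 to 8.83 in wt, 8.19 to 10.13 in 1KI) and by 1.66 in the level-matched comparison. Its probe set, at a mean signal of 8.13, is far dimmer than the marker mean, and its rise enters that mean. Hnf4a, a master regulator of hepatocyte genes, rose by 0.22 ± 0.05 (adjusted p 6.0e-04), but was not called in the level-matched comparison (0.12, adjusted p 0.46) or with its probe sets averaged (0.17, adjusted p 0.23). In whole tissue, fewer cells of a type and less RNA per cell cannot be told apart.

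With all arrays, no listed gene of DNA replication or mitosis, which E2F factors are best known to activate, was called higher in 1KI. The shares called lower were near that of all genes. Of 42 genes of G1/S and DNA replication, 9 (21.4%) were called lower and 0 higher, against 17.5% lower and 10.2% higher of all genes, with a median of -0.30 against -0.05 over all genes. Without 1KI replicate 6, 6 were called lower. In the level-matched comparison 1 was called lower and the median was -0.04, against -0.07 over all genes. Of 29 genes of G2/M and mitosis, 4 (13.8%) were called lower and 0 higher, with a median of -0.32. In the level-matched comparison 0 were called, and the median was -0.19. When arrays were matched for level and Y-linked signal, 0 genes of either list were called, with medians of 0.18 for G1/S and 0.035 for G2/M. With probe sets averaged, 2 G1/S genes were called higher and 10 lower. The G1/S median was -0.08 within the arrays with Y-linked signal (1 higher, 2 lower). It was -0.47 within those with Xist signal (0 higher, 2 lower).

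Pola1, the catalytic subunit of DNA polymerase alpha, was the 1 gene of these 2 lists kept in 4 fits. It lay between 7.10 and 7.84 in wt (median 7.27) and between 5.97 and 6.85 in 1KI (median 6.4), so all 1KI arrays lay below all wt arrays. It fell by 0.93 ± 0.11 (adjusted p 7.1e-08) and by 0.79 in the level-matched comparison (adjusted p 0.016). A dimmer probe set of Pola1 differed by -0.10 and was not called. Rfc3, a subunit of the clamp loader, lay between 6.77 and 8.07 in wt (median 7.15) and between 6.05 and 6.98 in 1KI (median 6.49), with overlapping groups. Its fall of 0.72 ± 0.15 (adjusted p 4.3e-04) was seen in both of its probe sets, and the level-matched value was -0.39 (adjusted p 0.45). Prim2, the primase subunit that works with Pola1, fell by 0.37 ± 0.11, but was not called in the level-matched comparison (-0.21, adjusted p 0.61) or with its 3 probe sets averaged (-0.13, adjusted p 0.12).

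Mcm6, a subunit of the replicative helicase, spread widely within both groups. It lay between 7.67 and 10.28 in wt (median 7.925) and between 5.58 and 9.35 in 1KI (median 7.47), and the difference of -0.98 ± 0.40 was not called (adjusted p 0.066). Cdc6, which loads that helicase, read -0.36 ± 0.39 (adjusted p 0.52), and Ccne1, the cyclin that drives entry into S phase, -0.09 ± 0.08 (adjusted p 0.45). Of the mitotic genes, Ube2c, which hands ubiquitin to the anaphase-promoting complex, fell by 0.72 ± 0.22 (adjusted p 0.013; 6.46 to 7.98 in wt, 5.63 to 7.46 in 1KI). Mad2l1 of the spindle checkpoint fell by 0.60 ± 0.20 and the kinesin Cenpe by 0.46 ± 0.14. Ube2c, Mad2l1 and Cenpe read -0.78, -0.34 and -0.35 in the level-matched comparison and were not called (adjusted p 0.28, 0.65 and 0.49), and Mad2l1 read 0.03 when arrays were matched for level and Y-linked signal. Bub1, Ect2 and Cdk1 had differences of -0.50, -0.60 and -0.48 and did not pass.

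The promoters of Pola1, Rfc3 and Mcm6 are shown because these 3 replication genes, whose values are given above, each hold an E2F motif in the 250 bases before the start site. The sequences are those of RefSeq on GRCm38.p6, all 3 from the minus strand, and the capitals mark matches to TTTCCCGC, TTTGGCGC or TTTCGCGC on either strand. That of Pola1 is chrX:93632156-93632405, that of Rfc3 chr5:151651209-151651458 and that of Mcm6 chr1:128359706-128359955.
Pola1: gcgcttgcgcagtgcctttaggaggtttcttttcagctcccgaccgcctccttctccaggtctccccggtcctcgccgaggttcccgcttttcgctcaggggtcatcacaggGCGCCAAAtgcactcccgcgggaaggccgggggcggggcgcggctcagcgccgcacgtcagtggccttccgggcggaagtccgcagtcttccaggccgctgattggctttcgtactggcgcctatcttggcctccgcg
Rfc3: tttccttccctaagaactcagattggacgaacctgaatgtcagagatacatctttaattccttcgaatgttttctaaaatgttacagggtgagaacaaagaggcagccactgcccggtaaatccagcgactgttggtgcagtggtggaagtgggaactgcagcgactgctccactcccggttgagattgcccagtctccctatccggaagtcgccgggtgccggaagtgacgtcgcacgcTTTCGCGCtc
Mcm6: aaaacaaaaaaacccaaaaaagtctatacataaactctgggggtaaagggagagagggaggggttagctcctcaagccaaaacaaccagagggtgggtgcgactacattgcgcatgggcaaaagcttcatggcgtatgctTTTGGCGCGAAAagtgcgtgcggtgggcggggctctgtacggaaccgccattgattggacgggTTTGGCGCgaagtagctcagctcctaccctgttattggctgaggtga
Pola1 has 1 match, which starts 138 bases before the start site. Rfc3 has 1 match 10 bases before it, and Mcm6 has 3, of which those 110 and 106 bases before the start overlap and the last lies 47 bases before it.

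Among 14452 tested genes with a RefSeq promoter of 300 bases, 250 before and 50 after the start, 469 (3.25%) held 1 of these 3 motifs. The share was 3.87% among the genes called higher (58 of 1499) and 2.82% among those called lower (71 of 2521). Of the genes kept in 4 fits, 9 of 286 higher ones (3.15%) and 8 of 182 lower ones (4.4%) held a motif. Among the G1/S and replication genes 16 of 36 (44.4%) did, among those of them called lower 2 of 7, and among the G2/M genes 0 of 24. The E-box CACGTG, given as another motif, was in 10.2% of all promoters, 11.2% of those called higher and 11.7% of those called lower. A match describes letters alone and is not a binding site.

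**Figure D1:**
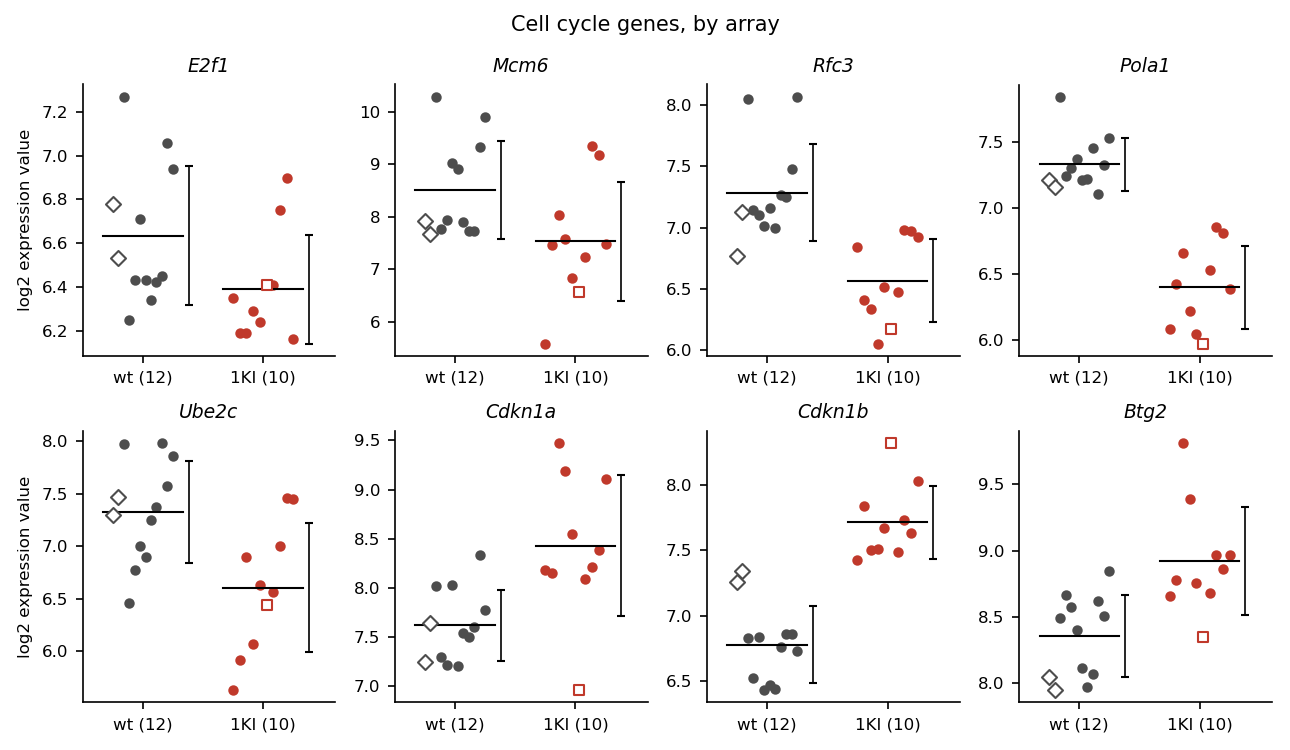
Log2 expression of E2f1, 3 replication genes, Ube2c and 3 growth inhibitors in each wt (grey) and 1KI (red) array; lines are means, bars are SD, open diamonds are wt replicates 1 and 2 and the open square is 1KI replicate 6. Pola1 in 1KI lies between 5.97 and 6.85, below all wt arrays, while the Mcm6 and E2f1 groups overlap.

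Inhibitors of the cell cycle moved in both directions. Cdkn1b, which encodes p27, lay between 6.43 and 7.34 in wt (median 6.795) and between 7.43 and 8.32 in 1KI (median 7.65), so all 1KI arrays lay above all wt arrays. It rose by 0.94 ± 0.10 (adjusted p 4.3e-08), but the level-matched difference was 0.41 (adjusted p 0.13) and a second, dimmer probe set gave -0.07. Cdkn1a, which encodes p21, lay between 7.21 and 8.33 in wt (median 7.57) and between 6.96 and 9.47 in 1KI (median 8.3). The groups overlapped, and the rise was 0.81 ± 0.19 (adjusted p 0.0016), or 1.40 in its second probe set; the level-matched difference was 0.98 (adjusted p 0.11), and 1.15 (adjusted p 0.015) without 1KI replicate 6, the lowest 1KI array at 6.96. Cdkn2d, the kinase inhibitor p19, fell by 0.49 ± 0.10, and Cdk6, a kinase that p19 inhibits, rose by 0.26 ± 0.07; neither was called in the level-matched comparison (-0.53, adjusted p 0.1, and 0.18, adjusted p 0.44), nor Cdk6 with its probe sets averaged. Of the 17 pocket proteins, D and E cyclins and their kinases and inhibitors 3 (17.6%) were called higher and 2 (11.8%) lower with all arrays, against 10.2% and 17.5% of all genes, and 0 in the level-matched comparison.

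Target genes of p53 were also called in both directions. Of 22, 6 (27.3%) were called higher and 8 (36.4%) lower, against 10.2% and 17.5% of all genes, with a median of -0.06, and in the level-matched comparison 1 was higher and 1 lower. Btg2, an antiproliferative gene named after its values were seen, lay between 7.95 and 8.85 in wt (median 8.445) and between 8.35 and 9.81 in 1KI (median 8.82). It rose by 0.57 ± 0.13 (adjusted p 0.0016) and by 0.92 in the level-matched comparison (adjusted p 0.019). Sesn2 and Ddit4, inhibitors of mTOR signalling, rose by 0.34 ± 0.07 and 0.71 ± 0.15, while the exonuclease gene Aen fell by 0.31 ± 0.07; Sesn2 read -0.01 when arrays were matched for level and Y-linked signal. Gadd45a, also named after its values were seen, fell by 0.91 ± 0.22 (adjusted p 0.0025). Sesn2, Ddit4, Aen and Gadd45a were not called in the level-matched comparison, where they read 0.07, 0.83, -0.25 and -0.81 (adjusted p 0.79, 0.072, 0.3 and 0.28); Ddit4 was called there without 1KI replicate 6 (0.89, adjusted p 0.046).

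Several of the largest differences lay in genes that handle phosphatidylcholine, the main phospholipid of membranes, bile and lipoproteins. Of 19 measured genes of its synthesis and transfer, 6 (31.6%) were called higher and 5 (26.3%) lower with all arrays, against 10.2% and 17.5% of all genes, and 5 higher and 1 lower in the level-matched comparison, against 4.30%. Their median difference was 0.06, and 6 of its members were kept in 4 fits: Pctp, Pltp, Chka, Chkb, Pcyt2 and Gdpd3.

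Pctp, the transfer protein that carries phosphatidylcholine between membranes, lay between 5.55 and 8.31 in wt (median 6.91) and between 8.47 and 10.70 in 1KI (median 9.68). All 1KI arrays lay above all wt arrays, and both probe sets rose, by 2.67 ± 0.30 (adjusted p 4.3e-08) and by 1.71 ± 0.23. Pltp, which moves phospholipids between lipoproteins in plasma, lay between 8.89 and 10.04 in wt (median 9.14) and between 9.58 and 11.41 in 1KI (median 10.625); the groups overlapped, and the level-matched difference was 1.02. Gdpd3, a lysophospholipase D that releases choline from lysophosphatidylcholine, was the gene with the lowest log2 difference of all 18193. It lay between 5.28 and 11.02 in wt (median 10.795) and between 4.37 and 7.90 in 1KI (median 4.95). The second lowest wt array read 10.41, so the groups overlapped through 1 wt array alone, and the level-matched difference was -5.43.

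The enzymes that phosphorylate choline and ethanolamine or activate the latter were higher. Chkb, choline kinase beta, lay between 8.72 and 9.26 in wt (median 9.075) and between 9.50 and 10.36 in 1KI (median 9.765), without overlap. The rise was 0.75 ± 0.08 (adjusted p 4.0e-08), and 0.65 in the level-matched comparison. Its paralogue Chka, named after its values were seen, lay between 7.26 and 8.35 in wt (median 7.725) and between 8.27 and 9.07 in 1KI (median 8.885), and rose by 1.01 ± 0.13 (adjusted p 3.2e-07). Pcyt2, which activates phosphoethanolamine with CTP, lay between 11.43 and 12.00 in wt (median 11.7) and between 12.12 and 12.72 in 1KI (median 12.27). Again no arrays overlapped, and the rise was 0.59 ± 0.06 (adjusted p 2.8e-08), with 0.55 in the level-matched comparison. In contrast, Pcyt1a, the CTP enzyme of the choline branch, and Pemt, which methylates phosphatidylethanolamine, were lower by 0.34 ± 0.12 and 0.25 ± 0.08 with all arrays, and by 0.18 and 0.16 without 1KI replicate 6. The level-matched adjusted p of Pcyt1a was 0.66 and that of Pemt 0.63. Bhmt, which uses betaine made from choline, read 0.19 ± 0.09 (adjusted p 0.12), and Gpcpd1, which cleaves glycerophosphocholine, 0.30 ± 0.12 (adjusted p 0.053), or 0.85 (adjusted p 1.8e-04) with its probe sets averaged.

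**Figure D2:**
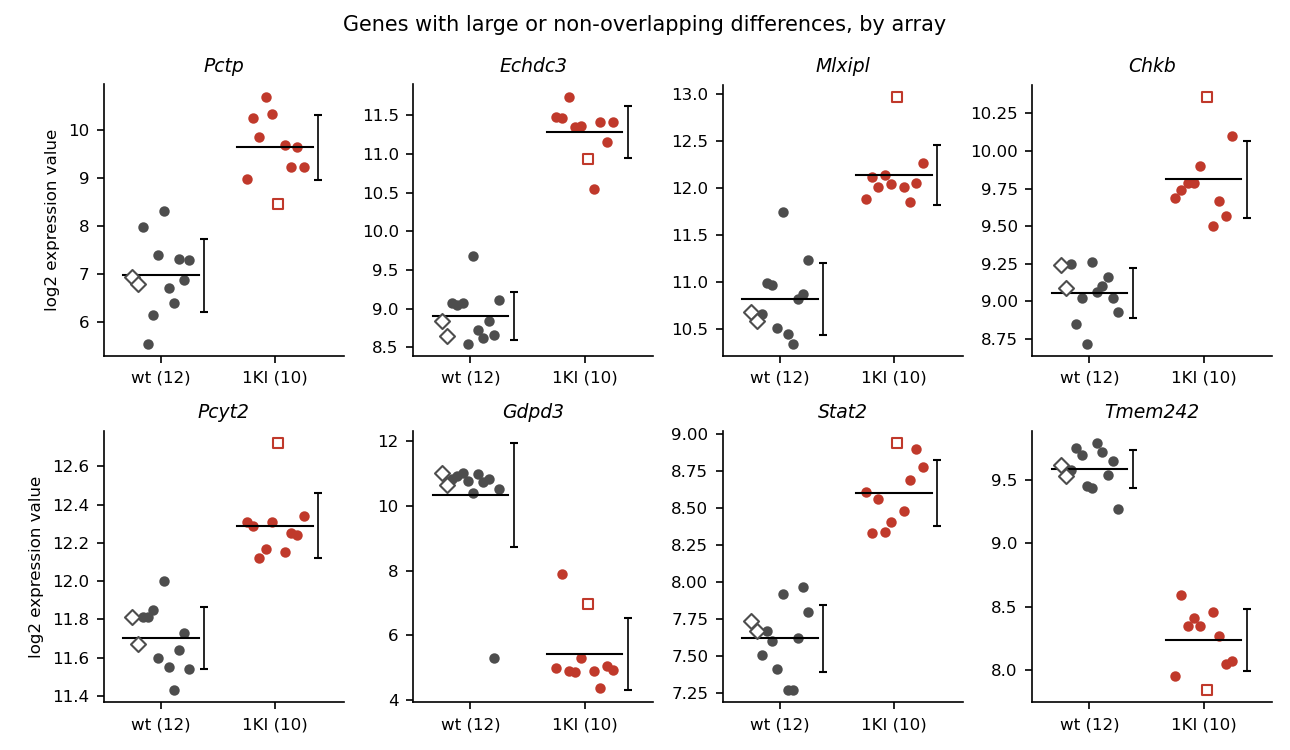
Log2 expression of 8 leading genes in each wt (grey) and 1KI (red) array; lines are means, bars are SD, open diamonds are wt replicates 1 and 2 and the open square is 1KI replicate 6. Pctp, Echdc3, Mlxipl, Chkb, Pcyt2 and Stat2 are higher and Tmem242 is lower in all 10 1KI arrays than in all 12 wt arrays, and Gdpd3 overlaps through 1 wt array at 5.28.

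Further large rises were those of Echdc3, Mlxipl and Lpin1. Echdc3, an enoyl-CoA hydratase-like mitochondrial protein, lay between 8.55 and 9.68 in wt (median 8.84) and between 10.55 and 11.74 in 1KI (median 11.385). All 1KI arrays lay above all wt arrays, and the rise was 2.38 ± 0.12 (adjusted p 9.0e-16). Mlxipl encodes ChREBP, the factor that turns on sugar-handling and fat-making genes when glucose is high, and lay between 10.34 and 11.74 in wt (median 10.745) and between 11.85 and 12.97 in 1KI (median 12.045). It rose without overlap by 1.32 ± 0.13 (adjusted p 3.1e-09), and the level-matched adjusted p was 1.8e-04. The highest array was 1KI replicate 6, without which the rise was 1.22. Lpin1, a phosphatidate phosphatase and coactivator, lay between 10.25 and 12.02 in wt (median 11.135) and between 10.86 and 13.10 in 1KI (median 12.435). Its rise was 1.29 ± 0.24 (adjusted p 1.3e-04), and 1.70 in the level-matched comparison (adjusted p 0.021).

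BC023105, Itih5, Arrdc2, Gdap10 and Wfdc2 were further rises kept in 4 fits. BC023105 lay between 6.09 and 6.69 in wt (median 6.46) and between 6.94 and 11.50 in 1KI (median 8.03), where the top value came from 1KI replicate 3. Itih5, an inter-alpha-trypsin inhibitor heavy chain, lay between 6.35 and 7.00 in wt (median 6.77) and between 7.48 and 8.82 in 1KI (median 8.44), without overlap. Arrdc2, an arrestin-domain gene, ranged 6.12 to 7.59 in wt and 7.54 to 9.28 in 1KI and overlapped at its edge. The rises of Gdap10 and Wfdc2 were 1.32 ± 0.36 and 1.29 ± 0.18. Gdap10 overlapped, at 7.76 to 11.35 in wt and 9.40 to 12.23 in 1KI, where the top value was that of 1KI replicate 6. Its difference was 2.50 in the level-matched comparison and 1.11 without 1KI replicate 6. In the arrays with Xist signal it was 0.61 and not called (adjusted p 0.37). BC023105 and Lpin1 were not called in those arrays either, at 1.76 and 0.81 (adjusted p 0.098 and 0.11). Itih5, Arrdc2, Wfdc2, Pctp, Pltp, Echdc3 and Mlxipl were called there. When arrays were matched for level and Y-linked signal, BC023105 read 2.24 and was not called (adjusted p 0.082). Erdr1, also kept in 4 fits, differed by 2.80 on a probe set that can bind several transcripts, without overlap (9.14 to 10.58 in wt, 12.35 to 13.09 in 1KI). When such probe sets were left out it differed by 0.17, on a far dimmer probe set (mean signal 5.09 against 10.69). With its probe sets averaged the difference was 1.48, so the value of Erdr1 is uncertain.

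Of 8 nuclear noncoding RNAs 3 (37.5%) were called higher, against 10.2% of all genes, and 0 lower. Neat1, the scaffold of paraspeckles, rose by 1.51 ± 0.29 with all arrays and 2.37 in the level-matched comparison; a second, dimmer probe set gave 0.04. Malat1, a nuclear speckle RNA, rose by 0.84 ± 0.21 and 1.77, and all 7 of its probe sets were called higher. The groups overlapped for Neat1, which lay between 8.29 and 11.31 in wt (median 9.035), and 2 of 10 1KI arrays lay above that range. In wt replicates 1 and 2 it read 8.72 and 8.29. Within the arrays with Xist signal its rise was 0.94 and not called (adjusted p 0.105). In 1KI replicate 6, Neat1 read 11.85 within a 1KI range of 9.84 to 11.85, and Malat1 12.35 within 10.46 to 12.35, the highest 1KI values of both. Without that array the rises were 1.40 and 0.70.

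The largest falls kept in 4 fits beside Gdpd3 had varied roles. Tmem242, a mitochondrial membrane protein, lay between 9.27 and 9.79 in wt (median 9.6) and between 7.84 and 8.59 in 1KI (median 8.31). It fell without overlap by 1.35 ± 0.07 (adjusted p 5.7e-15), and by 0.47 with its 3 probe sets averaged. Psmc3ip and Meiob, both of meiotic recombination, fell by 1.54 ± 0.22 and 1.29 ± 0.11, without overlap (8.34 to 8.65 in wt, 5.76 to 8.24 in 1KI for the former). Akr1e1, an aldo-keto reductase, spanned 9.73 to 9.91 in wt and 6.78 to 9.75 in 1KI. Adat2, the tRNA adenosine deaminase subunit, fell by 1.42 ± 0.10 (8.04 to 8.35 in wt, 6.26 to 7.71 in 1KI). Ube2l6, the conjugating enzyme of the ubiquitin-like ISG15, fell by 1.32 ± 0.15 (7.20 to 8.18 in wt, 5.17 to 6.74 in 1KI). The falls of the calcium-binding S100a13 (9.26 to 9.63 in wt, 7.93 to 8.70 in 1KI) and of the sulfotransferase Sult1c2 (7.88 to 8.85 in wt, 7.03 to 7.59 in 1KI) were 1.14 ± 0.08 and 1.12 ± 0.11. Vldlr, a receptor for triglyceride-rich lipoproteins, Gm4951 and 1700001C19Rik fell by 1.25 ± 0.22, 1.28 ± 0.11 and 1.34 ± 0.20.

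A few large differences of the fit over all arrays were not kept. Hamp2, a hepcidin-related gene, read -1.94 ± 0.29, and -1.52 in the level-matched comparison (adjusted p 0.093). When probe sets that can bind several transcripts were left out it read -0.16, on a far dimmer probe set (mean signal 5.35 against 12.36). Dnaic1, an axonemal dynein chain, and Hddc3 fell by 1.51 ± 0.23 and 1.59 ± 0.27, with level-matched values of -0.78 (adjusted p 0.28) and -1.54 (adjusted p 0.072). The acute phase gene Lcn2 rose by 1.66 ± 0.45, Cyp2g1 fell by 1.38 ± 0.22, and Ctse, the protease cathepsin E, had another probe set called in the opposite direction. Lcn2, Cyp2g1 and Ctse read 1.88, -1.29 and 0.84 in the level-matched comparison (adjusted p 0.21, 0.067 and 0.18).

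Genes of sugar and lipid metabolism were called in both directions. Of 12 ChREBP and sugar-handling genes 3 (25%) were higher and 4 (33.3%) lower, against 10.2% and 17.5% of all genes. The median was -0.02 (0.01 after quantile normalization), and without 1KI replicate 6 the counts were 3 and 2. The 12 include Mlxipl and Arrdc2, whose rises are given above, and these 2 alone were called in the level-matched comparison. Pklr, the liver pyruvate kinase and a textbook ChREBP target, read -0.24 ± 0.13 (adjusted p 0.17). Slc2a2, the main glucose transporter of hepatocytes, fell by 0.42 ± 0.07 (adjusted p 5.6e-05) without overlap, with a level-matched value of -0.33 (adjusted p 0.16). Mlx, the partner of ChREBP, fell by 0.37 ± 0.12, but by 0.22 without 1KI replicate 6 (7.64); it was not called with its probe sets averaged (-0.17) or in the level-matched comparison (-0.24, adjusted p 0.58), and read 0.02 when arrays were matched for level and Y-linked signal. Of 20 genes of fatty acid and triglyceride synthesis 3 (15%) were higher and 3 (15%) lower. Lpin1, given above, is among the 3 higher and alone was called in the level-matched comparison. Dgat2, the last enzyme of triglyceride synthesis, rose by 0.20 ± 0.05, and Gpam, the first, fell by 0.29 ± 0.07. Both calls ended in the level-matched comparison, where Dgat2 read 0.06 (adjusted p 0.76) and Gpam -0.10 (adjusted p 0.68).

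More cholesterol genes were called higher than lower with all arrays, and the called fasting genes were all higher. Of 20 cholesterol synthesis and uptake genes 4 (20%) were higher and 1 (5.00%) lower, against 10.2% and 17.5% of all genes. The median of the list was 0.14, and 0.44 in the level-matched comparison, where 1 was called. Within the arrays with Y-linked signal 4 were higher and 1 lower (median 0.25). Within those with Xist signal 1 was higher and 1 lower (median -0.15). Srebf2, the master factor of cholesterol genes, rose by 0.52 ± 0.08 and the enzyme Dhcr7 by 0.43 ± 0.14. The carrier Stard4 fell by 0.44 ± 0.07 and Mvd read 0.45 ± 0.20 (adjusted p 0.1). Srebf2, Dhcr7 and Stard4 read 0.36, 0.56 and -0.11 in the level-matched comparison and were not called (adjusted p 0.17, 0.22 and 0.62). Of 15 gluconeogenic and fasting genes, against 10.2% higher and 17.5% lower of all genes, 3 (20%) rose and 0 fell. These were Angptl4, an inhibitor of lipoprotein lipase, by 0.56 ± 0.14, Irs2, a docking protein of insulin signalling, by 0.44 ± 0.15, and the factor Klf15 by 0.29 ± 0.09. Without 1KI replicate 6, 5 of the 15 were higher. In the level-matched comparison 0 were called, with Angptl4 at 0.46, Irs2 at 0.15 and Klf15 at -0.05.

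PPAR alpha targets, which serve fat burning, were mostly not called: 1 of 24 (4.17%) was higher and 6 (25%) were lower, against 10.2% and 17.5% of all genes. Acaa1a, the peroxisomal thiolase, fell by 0.40 ± 0.06 (adjusted p 5.8e-06) without overlap (8.92 to 9.20 in wt, 8.23 to 8.91 in 1KI) and was kept in 4 fits, but both of its probe sets can bind several transcripts, so its value is uncertain. Pex11a, which helps peroxisomes divide, rose by 0.50 ± 0.10, and Bdh1, a ketone body enzyme, fell by 0.19 ± 0.05. Neither was called in the level-matched comparison (0.58, adjusted p 0.06, and -0.18, adjusted p 0.3). Cyp4a14, a strongly inducible target, read -0.72 ± 0.50 (adjusted p 0.29).

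Of the genes of bile acids and of drug metabolism, those of phase II conjugation had the largest share of lower calls. Of 21 bile acid genes 1 (4.76%) was higher and 5 (23.8%) lower, against 10.2% and 17.5% of all genes. Cyp27a1, of the alternative synthesis pathway, rose by 0.33 ± 0.07, the transporter Slco1a4 fell by 0.75 ± 0.12, and Cyp7a1, the rate-limiting enzyme, read -0.58 ± 0.28 (adjusted p 0.12). Of 29 cytochrome P450 genes 2 (6.90%) were higher and 5 (17.2%) lower; Cyp2d22 fell by 0.47 ± 0.05 without overlap (12.14 to 12.53 in wt, 11.67 to 12.09 in 1KI) and Cyp2d10 by 0.26 ± 0.05, and both were kept in 4 fits, while Cyp3a25 rose by 0.28 ± 0.07. Close relatives in these families can share probes. Of 29 phase II conjugation genes 11 (37.9%) were lower and 0 higher, with a median of -0.11 and a level-matched median of -0.18, where Sult1b1 and Sult1c2 were called. Sult1b1, a sulfotransferase for thyroid hormones, fell by 0.66 ± 0.07, and Nqo1, a quinone reductase under NRF2, by 0.50 ± 0.12. Calls ended in the level-matched comparison for Nqo1 (-0.05, adjusted p 0.92), Cyp27a1 (0.27, adjusted p 0.21), Slco1a4 (-0.58, adjusted p 0.13) and Cyp3a25 (0.23, adjusted p 0.29).

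With all arrays, acute phase genes were more often called higher than lower, and interferon-stimulated genes more often lower. Of 29 acute phase genes 12 (41.4%) were higher and 2 (6.90%) lower, against 10.2% and 17.5% of all genes (median 0.19), but 1, Cebpd, was called in the level-matched comparison, where the median was also 0.19. Cebpb, a factor that drives this response, rose by 0.64 ± 0.11, while Saa2 and Orm2, secreted acute phase proteins, read 0.94 ± 0.48 (adjusted p 0.14) and 0.90 ± 0.37 (adjusted p 0.066); without 1KI replicate 6 Orm2 was called (1.07, adjusted p 0.028). Of 27 interferon-stimulated genes 2 (7.41%) were higher and 10 (37%) lower, with a median of -0.15. Ifit2 and Ifit3, antiviral proteins that bind RNA, fell by 0.47 ± 0.13 and 0.39 ± 0.10, and the chemokine Cxcl10 read -0.47 ± 0.19 (adjusted p 0.069). Cebpb, Ifit2 and Ifit3 were not called in the level-matched comparison, at 0.48, -0.45 and -0.32 (adjusted p 0.19, 0.3 and 0.34).

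Stat2, the signal carrier of type I interferon receptors, went the other way. It lay between 7.27 and 7.97 in wt (median 7.645) and between 8.33 and 8.94 in 1KI (median 8.585), without overlap. The rise was 0.98 ± 0.08 (adjusted p 2.0e-10), 0.90 in the level-matched comparison and 0.72 ± 0.08 in its second probe set, and it was the 1 interferon-stimulated gene of the list called in the level-matched comparison.

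Glucocorticoid-responsive genes and metallothioneins were mostly higher where called, clock genes went both ways and most called iron genes were lower. Of the 12 metallothionein and glucocorticoid-responsive genes 6 (50%) were higher and 1 (8.33%) lower, against 10.2% and 17.5% of all genes, with a median of 0.52, and 0 were called in the level-matched comparison, where the median was 0.44. Klf9, a direct glucocorticoid receptor target, rose by 0.52 ± 0.10, and Mt2, a metal-binding protein, read 0.52 ± 0.42 (adjusted p 0.37). Of 22 clock genes 5 (22.7%) were higher and 3 (13.6%) lower. Per1 and Cry2, repressors of the core loop, rose by 0.62 ± 0.14 and 0.34 ± 0.07, Ciart rose by 0.94 ± 0.23, and Wee1, a clock-controlled mitotic kinase, fell by 0.83 ± 0.19. No source used here gives the hour at which livers were taken. Of 17 hepcidin and iron genes 1 (5.88%) was higher and 7 (41.2%) lower: ferroportin, Slc40a1, the exporter of iron, fell by 0.43 ± 0.04 without overlap (12.51 to 12.73 in wt, 11.83 to 12.36 in 1KI) and was kept in 4 fits, Hmox1, which frees iron from haem, fell by 0.46 ± 0.10 and Bmp6, which induces hepcidin, by 0.29 ± 0.08. Hepcidin itself, Hamp, read 0.24 ± 0.10 (adjusted p 0.059). Klf9, Per1, Cry2, Ciart and Wee1 read 0.45, 0.43, 0.32, 0.75 and -0.78 in the level-matched comparison, with adjusted p of 0.17, 0.36, 0.12, 0.34 and 0.22. Hmox1 and Bmp6 were not called there either (-0.32, adjusted p 0.32, and -0.43, adjusted p 0.06).

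Ribosomal protein and proteasome genes had, with all arrays, a larger share of lower calls than all genes, of which 17.5% were lower and 10.2% higher. Oxidative phosphorylation and heat shock genes did not. Of 26 ribosomal protein genes 4 (15.4%) were higher and 11 (42.3%) lower. Of 31 proteasome genes 1 (3.23%) was higher and 11 (35.5%) lower, and both lists had a median of -0.10. In the level-matched comparison 1 ribosomal protein gene was higher and 0 lower, and 0 proteasome genes were called, with a median of -0.08 in both. After quantile normalization 8 of each list were lower, and with equal medians over all probe sets 13 and 14. Rps25 was the exception among them that was kept in 4 fits, with a rise of 0.60 ± 0.12, and Psmd2 fell by 0.21 ± 0.04 (-0.23 in the level-matched comparison, adjusted p 0.092). Of 39 oxidative phosphorylation genes 2 (5.13%) were higher and 6 (15.4%) lower (median -0.02), and of 25 heat shock and unfolded protein genes 0 were higher and 3 (12.0%) lower, with a median of -0.02 that lay on either side of 0 under other scalings. Of 7 mitochondrial and housekeeping controls 1 was lower, and of 11 sex chromosome genes 1 was higher and 1 lower.

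Markers of the other liver cells are given beside 10.2% higher and 17.5% lower of all genes. Of 19 macrophage and Kupffer cell markers 1 (5.26%) was lower and 0 higher, with mean levels of 8.37 to 8.70 in wt and 8.01 to 9.29 in 1KI; Cx3cr1, a chemokine receptor, fell by 0.52 ± 0.10. Of 18 sinusoidal endothelial markers 4 (22.2%) were higher and 2 (11.1%) lower; Eng, a coreceptor for TGF beta, rose by 0.33 ± 0.06 without overlap and Flt4 by 0.36 ± 0.07. Of 20 stellate cell markers 2 were higher and 3 lower, of 12 cholangiocyte markers 2 and 2, and of 15 lymphocyte markers 0 and 3. Ecm1, of the stellate list, rose by 0.58 ± 0.13, and Pkhd1, the cilium protein of bile ducts, fell by 0.66 ± 0.15. Of 9 MHC class II genes 1 was lower, and mean levels were 6.71 to 7.02 in wt and 6.21 to 7.66 in 1KI. Of 11 neutrophil markers 1, S100a8, was higher, by 0.65 ± 0.23, of 10 erythroid markers 1, Car2, was lower, by 0.44 ± 0.10, and of 13 markers of neighbouring organs 2 were lower. In the level-matched comparison 1 stellate marker and 1 marker of neighbouring organs were called lower, and 0 macrophage, endothelial, cholangiocyte, lymphocyte, MHC class II, neutrophil and erythroid markers were called. There Cx3cr1, Eng, Flt4 and Ecm1 read -0.24, 0.22, 0.29 and 0.74, and Pkhd1, S100a8 and Car2 -0.23, 0.93 and -0.27. Their part in the results was not tested.

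**Figure D3:**
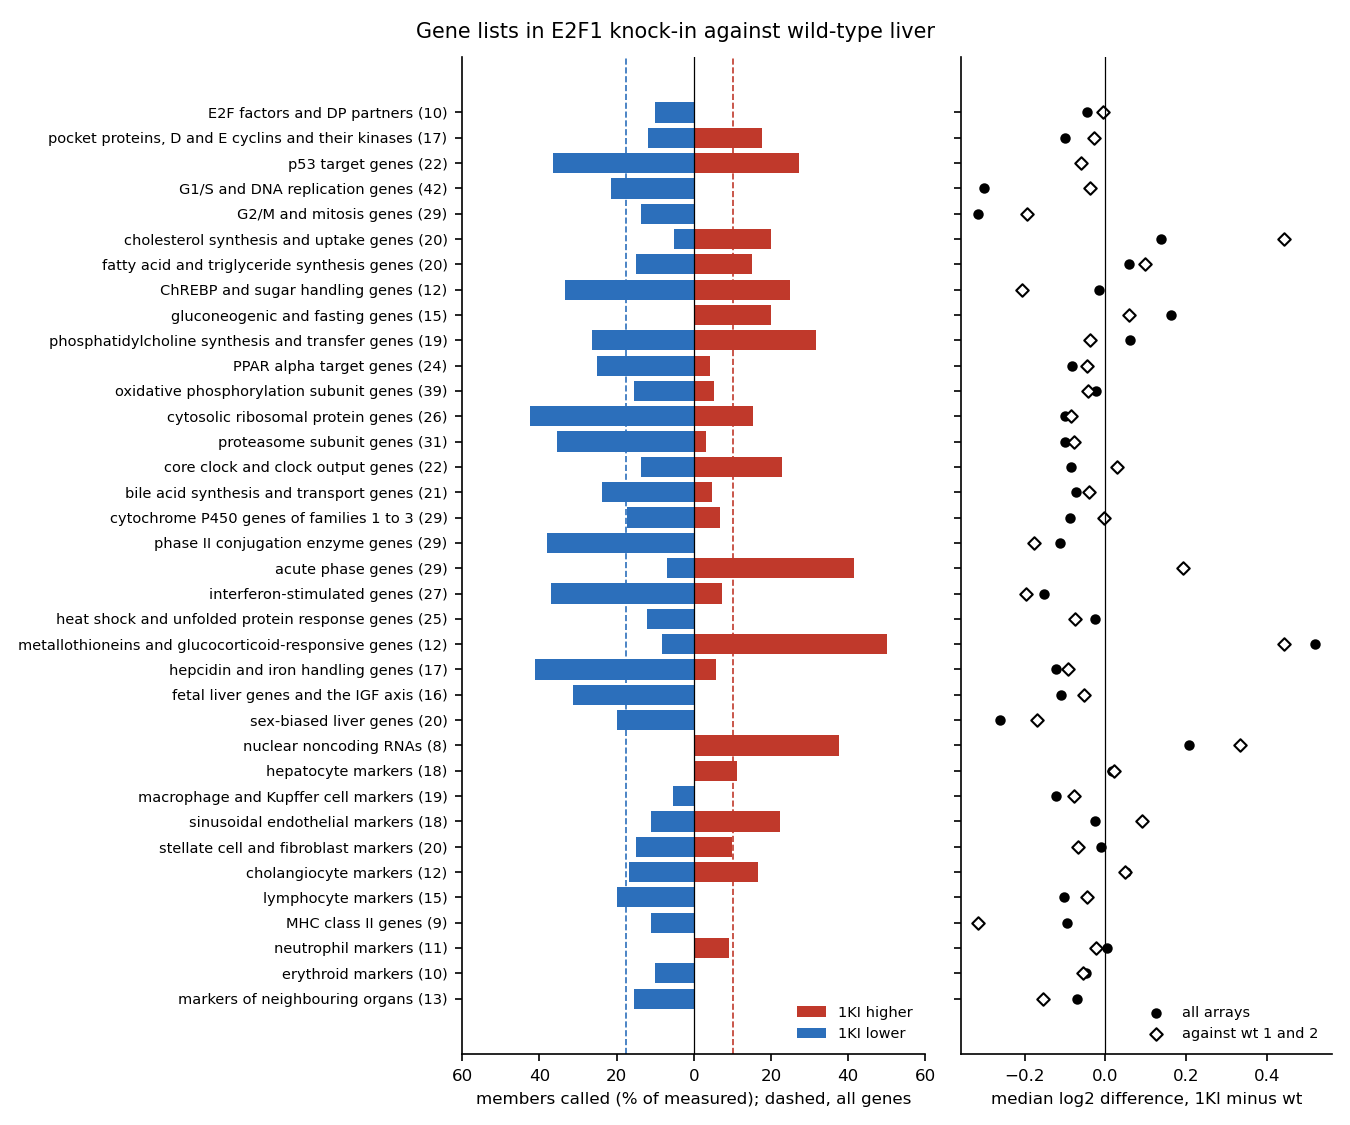
For the gene lists, the share of measured members called higher (red) or lower (blue) in 1KI in percent, with dashed lines at the 10.2% and 17.5% of all genes, and beside it the median log2 difference with all arrays (filled) and in the level-matched comparison (open diamonds). The glucocorticoid-responsive genes have the highest median with all arrays, 0.52, and the 2 cell cycle lists the lowest, -0.30 and -0.32, which lie at -0.04 and -0.19 in the level-matched comparison.

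Of 16 genes of the fetal liver and the IGF axis, 5 (31.2%) were lower and 0 higher with all arrays, against 17.5% and 10.2% of all genes. Without 1KI replicate 6, 1 was higher: Igfbp1, an insulin-repressed binding protein, at 1.26 (adjusted p 0.0095), against 1.00 ± 0.40 (adjusted p 0.057) with all arrays. Alpha-fetoprotein, Afp, which the liver shuts off after birth, read -0.26 ± 0.10 and was not called (adjusted p 0.0503). Igfbp3, the main plasma carrier of IGF, fell by 0.51 ± 0.08, and Ghr, the growth hormone receptor, by 0.24 ± 0.05, with level-matched values of -0.44 (adjusted p 0.061) and -0.18 (adjusted p 0.26). Of 20 sex-biased liver genes 4 (20%) were lower and 0 higher, with a median of -0.26. The list was not split into male-biased and female-biased genes, so its counts and medians give no direction of sex bias. Within the arrays with Xist signal 9 were lower and 1 higher (median -0.47), and within those with Y-linked signal 2 were lower (median -0.12). Among the arrays with Xist signal, hybridization level and genotype cannot be told apart. Hao2, a hydroxyacid oxidase, and Abcd2, a peroxisomal transporter, fell by 1.03 ± 0.27 and 1.06 ± 0.24 over all arrays, but were not called in the level-matched comparison (-0.47, adjusted p 0.64, and -0.47, adjusted p 0.59). For sex-biased genes that comparison mixes sex with genotype, as its wt arrays had Y-linked signal alone.

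For 4 genes (0.0220% of all) the 1KI difference depended on the sex class of the array, by an interaction term in limma without 1KI replicate 6. The classes are read from Xist and Y-linked signal and are not groups of the study. Cyp3a16, a P450 of young and female liver, read 7.22 to 8.58 (median 8.35) in the 5 wt arrays with Xist signal and 3.83 to 5.64 (median 4.76) in the 5 1KI arrays with it. In arrays with Y-linked signal it read 2.89 to 3.59 in wt and 2.90 to 3.25 in 1KI, so the groups separate in the Xist class alone, and the interaction was -3.37 ± 0.39 (adjusted p 2.9e-05). Cyp2d9, a male-biased P450, went the other way: in the Xist class it read 9.32 to 11.00 in wt and 11.66 to 12.38 in 1KI, in the Y class 12.85 to 13.39 and 13.03 to 13.73, with an interaction of 1.61 ± 0.27 (adjusted p 0.0065). In the Xist class all wt arrays lay at the lower hybridization level and all 1KI arrays at the higher, so that level and genotype cannot be told apart there. Both P450 genes have close relatives that can share probes.

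The other 2, Msl3 and Tlr7, lie near each other on the X chromosome and differed in the Y class. Msl3, of a chromatin complex, read 9.39 to 9.78 in the 7 wt arrays with Y-linked signal and 8.44 to 8.80 in the 5 1KI arrays, but 8.76 to 8.87 and 8.65 to 8.86 in the Xist class, with an interaction of 0.77 ± 0.09 (adjusted p 3.5e-05). Tlr7, a receptor for single-stranded RNA, read 5.92 to 6.25 in wt and 5.07 to 5.54 in 1KI in the Y class, with an interaction of 0.85 ± 0.12 (adjusted p 2.8e-04). In the Xist class Tlr7 read 5.35 to 5.56 in wt and 5.33 to 5.66 in 1KI. In both genes the wt arrays with Y-linked signal stood above all other wt and 1KI arrays, wt replicates 1 and 2 included.

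These genes belong to a run of neighbours on the X chromosome, looked at after the values of Msl3 and Tlr7 were seen. The run was drawn from Tlr7 to Hccs, both called in the Y class, so its count of called genes is partly set by that choice. Of the 6 consecutive tested genes Tlr7, Prps2, Msl3, Arhgap6, Amelx and Hccs, 5 were called lower in 1KI within the arrays with Y-linked signal. Within those with Xist signal 3 were called lower. Of all genes 13.0% and 14.7% were called in these classes, in either direction. Beyond the Tlr7 end, Tlr8 and Tmsb4x differed by -0.28 and -0.24 in the Y class and were not called (adjusted p 0.058 and 0.10). Hccs, which attaches haem to cytochrome c, read 10.33 to 10.94 in wt and 8.23 to 9.67 in 1KI in the Y class, a difference of -1.32, and -0.34 in the Xist class, where wt read 9.60 to 9.77; its lowest value was that of 1KI replicate 6. Arhgap6, a GTPase-activating protein, differed by -1.37 and -0.61, and Prps2, which makes the nucleotide precursor PRPP, by -0.74 and -0.41. Amelx was called in neither class (-0.0011 and -0.06). The next tested gene, Mid1, was higher in 1KI, by 0.77 in the Y class and 1.12 in the Xist class. The 3aKO arrays with Y-linked signal read 9.43 to 9.72 for Msl3 and 10.26 to 10.61 for Hccs, within or near the wt range of that class.

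**Figure D4:**
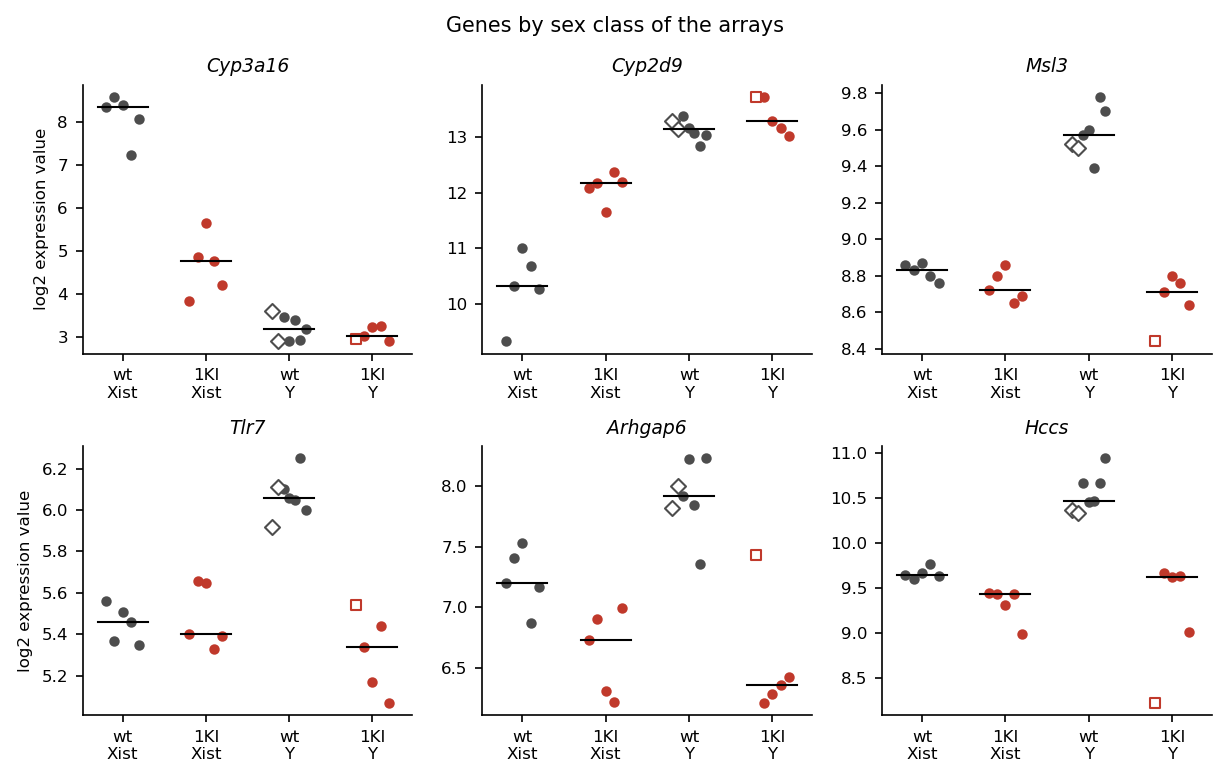
Log2 expression of Cyp3a16, Cyp2d9 and 4 genes of the X run in wt (grey) and 1KI (red) arrays, split by Xist and Y-linked signal; lines are medians, open diamonds are wt replicates 1 and 2 and the open square is 1KI replicate 6. Cyp3a16 separates the groups in the Xist class alone, where wt lies at 7.22 to 8.58, and Msl3 in the Y class alone, where wt lies at 9.39 to 9.78.

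Genes near E2f1 on chromosome 2 were among those kept in 4 fits. Of its 50 nearest tested genes, 25 on each side, 8 were called higher and 8 lower (27.6% of all genes were called), and 7 (14.0%, against 3.25%) were kept in 4 fits. The E2f3 gene, on chromosome 13, had 1 neighbour higher and 6 lower of 50 (14.0%) and 1 kept in 4 fits, Exoc2 of the exocyst (2.0%). BC029722 was the clearest of the E2f1 neighbours: it read 7.05 to 7.68 (median 7.46) in wt and 7.90 to 8.69 (median 8.38) in 1KI, without overlap, a difference of 0.94 ± 0.08. Cdk5rap1, which modifies mitochondrial tRNA, rose by 0.81 ± 0.13, and Trp53inp2, an autophagy regulator, by 0.51 ± 0.09. Pxmp4, a peroxisomal membrane protein and the next tested gene, rose by 0.30 ± 0.05.

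The remaining kept neighbours moved less: 9030607L20Rik rose by 0.26, while Gss, glutathione synthetase, and Myh7b, a myosin heavy chain, differed by -0.25 and -0.20. Beyond these 50, Ccm2l rose by 0.57 and Cpne1, a calcium-dependent phospholipid-binding protein, by 0.33 without overlap (9.06 to 9.30 in wt, 9.43 to 9.63 in 1KI). Over all 17131 overlapping windows of 51 tested genes the median held 1 kept gene and 178 (1.04%) held at least the 7 of the E2f1 window. The highest count, 10, was found in 9 windows, all on chromosome 2 and centred 14 to 26 genes from E2f1. By chromosome, the share kept in 4 fits was 4.92% on chromosome 17, 4.79% on chromosome 2 and 4.03% on chromosome 7, the 3 highest. Of the largest falls kept in 4 fits, Tmem242, Meiob, Sult1c2 and 1700001C19Rik lie on chromosome 17 and Ube2l6 on chromosome 2. Of the largest kept rises, Echdc3, Itih5, Pltp and Wfdc2 lie on chromosome 2. The animals are of mixed background, and no source used here gives the strain origin of these positions.

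**Figure D5:**
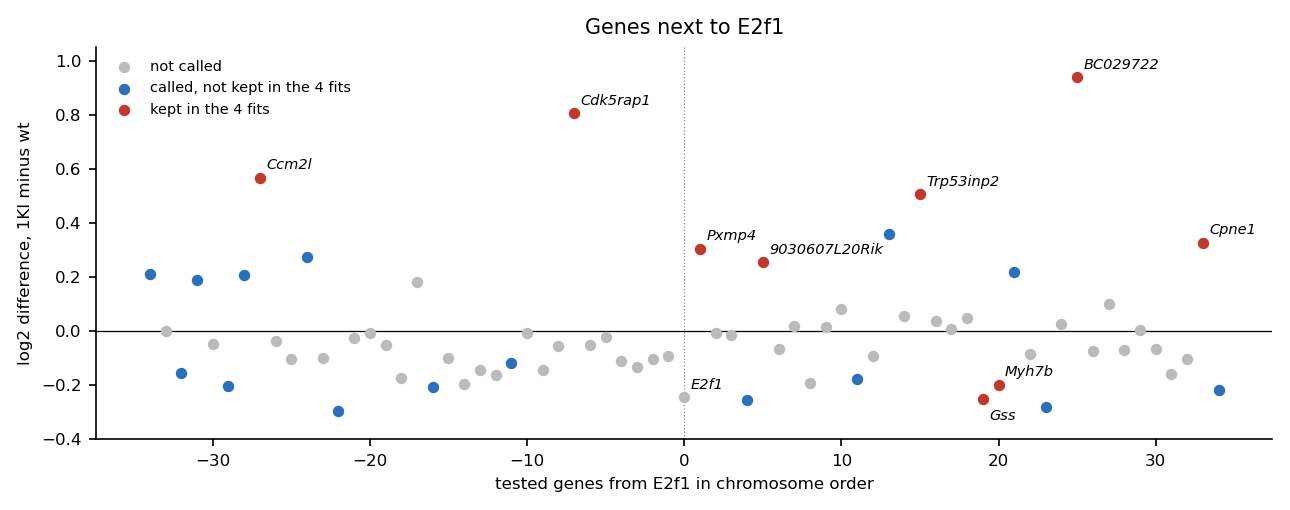
Log2 difference of 1KI minus wt for the 34 tested genes on each side of E2f1, placed by their order along chromosome 2 and coloured by whether they were not called, called or kept in 4 fits. BC029722, 25 genes away, stands highest among the kept ones at 0.94, and E2f1 itself, at -0.25, was not called.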

How the data were processed

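Livers were read on arrays in 10 1KI and 12 wt samples. The deposited values are log2 expression, normalized by the authors in a way that no source used here states. Log base 2 was inferred from their range of 2.22 to 15.05; array medians lay at 5.91 to 6. The number of arrays limits the precision. Of the probe sets, 34945 carried 1 symbol in the platform annotation, 932 several and 9160 none, and 34741 matched RefSeq by Entrez ID; for 9010 genes the probe set with the highest mean was chosen among several.

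The contrast 1KI minus wt was fitted over 32 arrays with lmFit and eBayes of limma 3.58.1 (R 4.3.3), with Benjamini-Hochberg adjustment at 0.05 over all genes, after it was tested on simulated data. Control signals were compared by a permutation test of 100000 resamples. Sex classes were set by Xist above 10. Replicate numbers did not pair the arrays. The 38 lists held 813 genes, 725 measured.

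Named genes were Afp, Ccne1, Cdc6, Cdkn1a, Mcm6, E2f1, E2f2 and E2f3; the 12 largest rises and falls among genes above the median signal that kept their call in 4 fits, without members of the sex chromosome list; the 10 largest rises and falls of the fit over all arrays; the genes with an interaction by sex class; and from each list up to 4 called members with the smallest p and up to 2 others with the largest change. Any other list member was named with its values already seen. The members, the lists and the rule were chosen with earlier results of these data known.

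Alternatives changed the samples, scaling, probe sets, blocks and thresholds. Samples of the second normalization were not used. Promoters came from RefSeq on GRCm38.p6.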

Additional observations from a re-analysis of the deposited data

Results flagged for a closer look

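In 1KI replicate 6 the poly-A controls, at 10.86, stood off from the other 9 1KI arrays by 0.7195 of the range of the group, and the 3′ minus 5′ difference, at 1.75, by 0.8314 of it. Among 38 genes examined in the same way, the extreme 1KI array stood off for 4: BC023105 in replicate 3 at 11.5 (0.4868 of the range), Mlxipl in replicate 6 at 12.97 (0.625), Lpin1 in replicate 1 at 10.86 (0.4955) and Hamp2 in replicate 1 at 13.16 (0.4771). Chance alone marks about 1 in 20 groups.

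The difference between 1KI and wt depended on the sex class of the array in 4 genes, by the interaction of Xist minus Y class in limma without 1KI replicate 6. It was -3.3749 for Cyp3a16, 0.7725 for Msl3, 0.851 for Tlr7 and 1.6147 for Cyp2d9. With all 10 1KI arrays the same terms were -3.34, 0.83, 0.79 and 1.53. Cyp3a16 was lower and Cyp2d9 higher in all 5 1KI arrays with Xist signal than in the 5 wt arrays with it, and Msl3 and Tlr7 were lower in all 5 1KI arrays with Y-linked signal than in the 7 wt arrays with it.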

How the results depend on the processing

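The count of called genes changed with the wt arrays used and with the threshold. Against the 5026 called (1850 higher, 3176 lower), 782 (388, 394) were called against wt replicates 1 and 2, which is the same fit as the hybridization level as a block, 672 (332, 340) with a sex index added, 678 (330, 348) with level and Y-linked signal matched, 2368 (986, 1382) in arrays with Y-linked signal and 2666 (1227, 1439) in those with Xist signal. Without 1KI replicate 6 the level block gave 884 (442, 442) and the block with the sex index 749 (374, 375); these 2, the matched arrays and equal medians over all probe sets were chosen after seeing the data. Fewer wt arrays enter these fits. At an adjusted p of 0.01 there were 2992, at 1.5-fold or more 422 and at 2-fold or more 86. Leaving out 1 array at a time gave 4529 to 5156 (1733 to 1946 higher, 2794 to 3318 lower). The 3′ minus 5′ difference between groups was 0.082 with all arrays and -0.04139 without 1KI replicate 6.

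With the replicate number as a block 3491 were called (1365 higher, 2126 lower). The 10 same-numbered pairs correlated from -0.40 to 0.34, 6 of them over 0.1, and 1 array correlated best with its own number, so the numbers were not taken to pair the arrays.

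Of 100 named and called genes, 36 kept call and direction with the level block, 63 kept direction alone and 1 turned; with probe sets averaged 93 kept both. Turned values were 0.0189 for Tfdp2 (probe sets averaged), 0.036 for Tlr7 (Xist class), -0.01 for Sesn2, 0.0275 for Mad2l1 and 0.02 for Mlx (level and Y-linked signal matched). Klf15 gave -0.046 against wt replicates 1 and 2 or with the level block, -0.0112 with the sex index added and -0.0389 with the level block without 1KI replicate 6. Irs2 gave -0.0148 with level and sex index, -0.0127 with these and without 1KI replicate 6, and -0.11 with level and Y-linked signal matched. The causes were not tested.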
